A study of Mus musculus with 170 samples.

Results

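The genes described here are 10 genes of fibroblasts and of the matrix that fibroblasts secrete: Pdgfra, Postn, Tnc, Thbs1, Thbs2, Pamr1, Fn1, Dcn, Lum and Fbn1. They were taken by symbol from a table of 21450 gene symbols, where they held 17 of 30146 probe rows (4 for Postn, 3 for Fn1, 2 each for Pdgfra and Lum, 1 for each of the others). Counts of a gene's probes were summed and scaled to the depth of the library as CPM, and all 10 genes passed the filter on low counts in lung, in heart and in the 2 tissues together. Each was measured in whole lung and whole heart of female CD-1 mice, an outbred stock, after smoke condensate was given by oropharyngeal aspiration, in which a drop laid on the base of the tongue is breathed in.

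Every smoke animal received 50 µL of saline in which the particulate matter of the smoke stood at 2 mg/mL. The other groups are labelled LPS (lipopolysaccharide, a bacterial endotoxin that inflames the lung) and Saline, with no dose of LPS stated. The 10 smokes came from flaming (flame) and smoldering (smolder) burns of 5 fuels: eucalyptus, pine, pine needles, peat and red oak. At each time, 4 h or 24 h, lungs came from 6 animals per smoke, 4 animals for LPS and 6 for saline. Hearts were taken at 24 h, from 6 animals each after red oak flame, peat flame, red oak smolder, peat smolder and saline, and these animals' lungs were measured too. All groups share stock and sex, and no age is stated. The comparisons ask whether the smokes, and which fuel and burning phase, change gene expression in lung and heart.

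PDGFRA, the receptor for platelet-derived growth factors encoded by Pdgfra, marks fibroblasts in most organs and drives their growth. Fibroblasts build the matrix from fibres and from the proteins that organise them: fibronectin (Fn1) is the scaffold on which other fibres assemble, fibrillin-1 (Fbn1) forms the microfibrils that carry elastin and store latent TGF-beta, and decorin (Dcn) and lumican (Lum) are small leucine-rich proteoglycans that bind collagen fibrils. Periostin (Postn), tenascin-C (Tnc) and the thrombospondins (Thbs1, Thbs2) are matricellular proteins, secreted into the matrix to signal to cells rather than to bear load, and they are known for rising in injured lung and heart. Pamr1 encodes a secreted protein with a serine protease-like domain, and less is known of its function.

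The 170 libraries held 4426180 to 8046021 counts, and p-values measure the spread between animals, since each library of a tissue is a separate animal by its title and hearts are matched to lungs by the animal number. In 6 lung libraries of 24 h fewer than 13000 genes had a count, against 0 of the 30 hearts. The tissue labels fitted the marker genes: the alveolar gene Sftpc averaged 3.32 ± 1.08 CPM in saline hearts and 4379 ± 1342 CPM in saline lungs, and the heart muscle gene Mybpc3 averaged 3197 ± 769.9 CPM in hearts and 4.56 ± 3.08 CPM in lungs (SD, n = 6). A change in whole tissue can come from fewer or more cells of a type or from less or more RNA per cell, and these cannot be told apart here. Levels are compared between samples and not between genes, because probes differ in yield.

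To show the start regions of genes on which the results turn, the 250 bases before the transcription start are printed for Pdgfra and Fbn1, which were the most firmly raised in heart, and for Postn and Tnc, matricellular genes lower in heart than in lung. The sequences are RefSeq's, on GRCm38.p6, from a table that held 5 of the 10 genes. Pdgfra lies at chr5:75152001-75152250 on the plus strand, Fbn1 at chr2:125506439-125506688 on the minus strand, the second start listed for Postn at chr3:54360857-54361106 on the plus strand, and the second start listed for Tnc at chr4:64046937-64047186 on the minus strand. Capitals mark matches on either strand to 6 motifs: TATANA (the TATA box), TGANTCA (AP-1), GGGCGG (SP1), GGAATG (TEAD), the CArG box and the NF-kB site.
Pdgfra: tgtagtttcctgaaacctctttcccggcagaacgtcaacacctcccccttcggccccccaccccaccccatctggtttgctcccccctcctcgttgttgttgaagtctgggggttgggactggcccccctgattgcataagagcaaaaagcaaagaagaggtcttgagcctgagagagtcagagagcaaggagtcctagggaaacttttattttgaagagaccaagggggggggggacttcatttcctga
Fbn1: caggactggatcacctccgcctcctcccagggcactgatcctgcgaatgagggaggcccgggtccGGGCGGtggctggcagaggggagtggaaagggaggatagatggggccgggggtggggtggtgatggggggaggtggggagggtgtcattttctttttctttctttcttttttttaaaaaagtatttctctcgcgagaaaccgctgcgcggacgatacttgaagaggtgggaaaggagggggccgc
Postn: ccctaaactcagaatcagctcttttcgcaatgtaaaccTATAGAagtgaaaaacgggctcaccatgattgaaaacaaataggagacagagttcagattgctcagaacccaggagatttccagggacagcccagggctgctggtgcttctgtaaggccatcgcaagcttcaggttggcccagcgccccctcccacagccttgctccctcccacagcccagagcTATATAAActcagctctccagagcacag
Tnc: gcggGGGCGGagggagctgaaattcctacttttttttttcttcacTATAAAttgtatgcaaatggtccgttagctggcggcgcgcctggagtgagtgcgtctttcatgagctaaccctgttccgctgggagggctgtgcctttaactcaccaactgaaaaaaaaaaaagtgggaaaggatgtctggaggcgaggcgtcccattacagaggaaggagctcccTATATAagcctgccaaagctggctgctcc
At these second starts, Postn and Tnc each hold TATA box letters just before the start. They begin 28 bases upstream in Postn and 29 bases upstream in Tnc, where matches of both strands overlap. Each has a further match, 212 bases upstream in Postn and 205 bases upstream in Tnc. TATANA is found in 22.6% of the 32851 promoters of the table in a window of the same length. GGGCGG, found in 32.7% of them, occurs once in Fbn1 and once in Tnc, and no motif matched in Pdgfra. The other motifs occur in 6.75% (TGANTCA), 12.6% (GGAATG), 1.47% (CArG box) and 3.9% (NF-kB) of the table's promoters, and were not matched in these 4 windows. The windows not printed differed. No motif matched at the first start listed for Postn. The first start listed for Tnc had TATA box and GGGCGG matches, but no TATA box letters just before the start. Thbs2, also in the table, had a match to the TATA box and to the NF-kB site.

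The gene group was split between the tissues of saline animals. Lum, Thbs2 and Dcn were higher in heart, while Thbs1, Pamr1, Tnc, Pdgfra, Fn1, Postn and Fbn1 were lower in heart than in lung. All 10 genes were called (edgeR's quasi-likelihood test, adjusted p under 0.05 over all genes), but 74.4% of the 13746 genes tested were called in this comparison, so that count says little about the group. For this comparison both tissues were scaled together, which gave higher values in heart and lower values in lung than scaling within 1 tissue. Pdgfra of saline hearts averaged 94.2 CPM here and 75.6 CPM when scaled within heart. In saline lungs it averaged 713 CPM here, below its value when scaled within lung.

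Lumican stood highest above lung. Lum had 278 to 559 CPM (median 361) in the 6 saline hearts and 13.2 to 30.4 CPM (median 18.9) in the lungs of the same 6 animals, a log2 difference of 4.32 ± 0.36 (estimate ± SE, adjusted p = 1.2e-15). Decorin, the related proteoglycan, had 355 to 482 CPM (median 395) in heart and 46.9 to 111.8 CPM (median 60.98) in lung, a difference of 2.58 ± 0.25 (adjusted p = 2.22e-13). The lowest heart lay above the highest lung for both genes. Of the paired thrombospondins, Thbs2 was higher in heart by 2.59 ± 0.48, with 12.03 ± 2.42 CPM in hearts and 2.04 ± 1.45 CPM in lungs (SD, n = 6, adjusted p = 3.9e-06). Thbs1 ran the other way, with 1.38 to 5.02 CPM (median 2.97) in hearts and 103.6 to 276 CPM (median 181) in lungs, and a difference of -5.91 ± 0.67 (adjusted p = 2.94e-11). The groups did not overlap for either thrombospondin.

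Pamr1 and Tnc were near the floor of the assay in heart. Pamr1 averaged 1.86 ± 1.21 CPM in hearts and 86.3 ± 44.5 CPM in lungs (log2 difference -5.60 ± 0.60), and Tnc averaged 0.566 ± 0.422 CPM in hearts and 20.9 ± 7.35 CPM in lungs (-5.23 ± 0.64). Tnc had 0 counts in 1 of the saline hearts. Pdgfra averaged 94.2 ± 12.3 CPM in hearts and 713 ± 116.05 CPM in lungs (-2.94 ± 0.23), and between its 2 probes and the other settings the difference ran from -3.38 to -1.60. Fn1 was lower in heart by 2.74 ± 0.46 and Postn by 1.75 ± 0.37, and Fbn1 differed least, with 35.6 ± 11.5 CPM in hearts and 65.1 ± 25.3 CPM in lungs (-0.86 ± 0.32, adjusted p = 0.0142). Fbn1 lost its call with DESeq2's size factors (adjusted p = 0.0529) and without saline animal 6 (adjusted p = 0.0578). The median difference of the 10 genes was -2.24, against -0.33 over all genes.

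**Figure D1:**
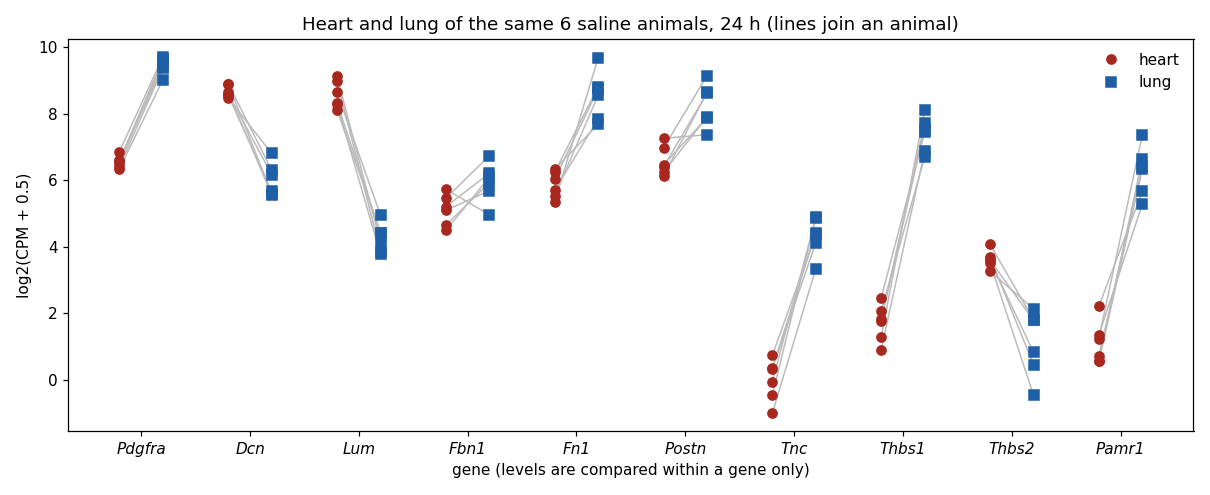
Levels of the 10 genes in heart (red circles) and lung (blue squares) of the same 6 saline animals at 24 h, on a log2(CPM + 0.5) axis, with a line joining the tissues of an animal. Lum, Thbs2 and Dcn lie higher in every heart, and the other genes lie lower in heart on average.

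The related gene lists were split in the same comparison. Of the small leucine-rich proteoglycans 2 were higher and 4 lower in heart of 8 tested, with Aspn higher by 1.93 ± 0.49 and Prelp and Podn lower by 2.60 ± 0.39 and 1.66 ± 0.41. Of the other matricellular genes 6 were higher and 6 lower of 16, among them Smoc2, which was higher by 2.497 ± 0.26, and Sparc, a collagen-binding glycoprotein that was lower by 3.12 ± 0.32. Wisp2 (Ccn5), another matricellular gene, was at 0.0760 ± 0.186 CPM in hearts and 15.5 ± 10.7 CPM in lungs. Elastic fibre genes were 0 higher and 9 lower of 13, led by Emilin1 (-2.39 ± 0.26) and the crosslinking enzymes Loxl1 (-3.75 ± 0.41) and Lox (-4.36 ± 0.50). PDGF ligands and receptors were 0 higher and 3 lower of 6: the ligand Pdgfa (-3.33 ± 0.22), the second receptor Pdgfrb (-2.15 ± 0.33) and the receptor-like Pdgfrl (-0.87 ± 0.40). TGF-beta genes were 3 higher and 12 lower of 19, with the receptor Tgfbr2 at 11.9 ± 3.49 CPM in hearts and 379 ± 190.3 CPM in lungs, and the signal carriers Smad4 (-3.25 ± 0.30) and Smad7 (-2.98 ± 0.33) also lower. Receptors for matricellular proteins were 3 higher and 9 lower of 15, led by the syndecans Sdc1 (-5.23 ± 0.46) and Sdc4 (-3.60 ± 0.34) and by Met (-4.60 ± 0.45). Other fibroblast markers were 5 higher and 8 lower of 18, and the lung fibroblast genes Inmt, Col13a1 and Npnt were at 3.28 ± 0.788, 5.79 ± 2.77 and 1.13 ± 0.688 CPM in hearts, against 2908 ± 1008, 217 ± 68.3 and 198 ± 122.9 CPM in lungs.

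The hearts were not alike in a marker of atrial muscle. Myl7, the myosin light chain of atrial muscle, stood at 622 to 4851 CPM in 7 of the 24 smoke hearts (1 of 6 after red oak flame, 3 after peat flame, 1 after red oak smolder and 2 after peat smolder) and in 0 of the 6 saline hearts. In the other hearts it lay between 0.647 and 8.50 CPM. Whether the 7 hearts held more atrial tissue was not tested. Red oak flame heart 6 also held more lung transcripts than any other heart, with the club cell gene Scgb1a1 at 109.98 CPM and no more than 18.2 CPM in the others. Results on heart are given with all hearts and then without the 7 of high Myl7, a comparison chosen after the data were seen that stands in a paragraph of its own for the related lists.

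After red oak flame 8 of the 10 genes rose in heart, where 5.33% of the 11179 genes tested rose. Pdgfra, Fbn1, Thbs2, Tnc, Pamr1, Fn1, Dcn and Postn rose, and Thbs1 and Lum were not called. The median change of the 10 genes was 1.31 on the log2 scale, against 0.031 over all genes. For groups that do not overlap, in this or any other comparison, the share of all genes separated in the same way was not counted.

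Pdgfra, the fibroblast receptor, was 123.2 to 217 CPM (median 142) in the 6 red oak flame hearts and 63.9 to 90.5 CPM (median 75.9) in the 6 saline hearts. Every red oak flame heart lay above every saline heart, and the change was 1.02 ± 0.18 (adjusted p = 0.00159). Fbn1, the microfibril gene, was 52.5 to 91.6 CPM (median 73.4) after red oak flame and 17.7 to 41.7 CPM (median 28.9) after saline, again without overlap, and rose by 1.35 ± 0.26 (adjusted p = 0.00248). Fibronectin was 75.01 to 243 CPM (median 102.1) after red oak flame and 31.5 to 66.3 CPM (median 46.6) after saline. The Fn1 groups did not overlap either, with a rise of 1.45 ± 0.42 (adjusted p = 0.0243) and 2 red oak flame hearts far above the others.

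Among the matricellular genes, Thbs2 was 14.5 to 28.5 CPM (median 17.5) in red oak flame hearts and 7.13 to 13.6 CPM (median 9.21) in saline hearts, with no overlap, and rose by 0.99 ± 0.25 (adjusted p = 0.011). Postn was 111.3 to 294 CPM (median 182) after red oak flame and 56.96 to 121.1 CPM (median 70.3) after saline. Its groups overlapped, with 4 of 6 exposed hearts above the highest saline heart, and its rise of 1.27 ± 0.42 stood close to the threshold (adjusted p = 0.0468). Tnc rose by 2.30 ± 0.60 (adjusted p = 0.0127) at a low level, 2.35 ± 1.18 CPM after red oak flame and 0.457 ± 0.340 CPM after saline, and no heart of any group held more than 31 Tnc counts. Thbs1 averaged 9.87 ± 12.7 CPM after red oak flame and 2.40 ± 1.02 CPM after saline, a change of 2.05 ± 0.76 that was not called (adjusted p = 0.0757). Its mean was raised by 1 heart at 35.7 CPM. The other 5 hearts averaged 4.71 ± 1.41 CPM, and 4 of them lay above the highest saline heart at 3.92 CPM.

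Pamr1 averaged 6.23 ± 4.74 CPM after red oak flame and 1.49 ± 0.966 CPM after saline, and rose by 2.09 ± 0.53 (adjusted p = 0.0109), with 4 of 6 exposed hearts above every saline heart. The collagen-binding proteoglycans parted. Decorin was 371 to 794 CPM (median 446) after red oak flame and 294 to 381 CPM (median 320.3) after saline, and rose by 0.58 ± 0.18 (adjusted p = 0.0351), with 5 of 6 exposed hearts above every saline heart. Lumican was 314 to 465 CPM (median 365) after red oak flame and 227 to 436 CPM (median 292) after saline, a change of 0.22 ± 0.19 with overlapping groups (adjusted p = 0.484).

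Without the 7 hearts of high Myl7 the same 8 genes were called for red oak flame, and 3.01% of all genes rose. Pdgfra then rose by 0.89 ± 0.14 (adjusted p = 0.000631), Fbn1 by 1.34 ± 0.22, Thbs2 by 0.85 ± 0.19, Fn1 by 1.18 ± 0.33, Postn by 1.10 ± 0.28, Tnc by 2.11 ± 0.60, Pamr1 by 1.59 ± 0.41 and Dcn by 0.40 ± 0.12 (adjusted p = 0.0492). In the 5 red oak flame hearts left, Pdgfra lay between 123.2 and 153 CPM, above the highest saline heart at 90.5 CPM. Leaving out any 1 heart kept the calls of Pdgfra, Fbn1, Thbs2 and Tnc. The call of Postn was lost in 17 of 30 such fits, that of Dcn in 8, that of Fn1 in 5 and that of Pamr1 in 1. Over the other settings Postn lost its call in 3 of 10, single probes among them, and Dcn in 1 of 7.

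After peat smolder 4 of the 10 genes rose, Pdgfra, Fbn1, Pamr1 and Postn, where 2.39% of all genes rose. Pdgfra reached 193 CPM (median 135.97) in the 6 peat smolder hearts, all of which lay above the highest saline heart at 90.5 CPM, and rose by 0.91 ± 0.18 (adjusted p = 0.0083). Postn was 126.6 to 362 CPM (median 210.0), also above all saline hearts, with a rise of 1.43 ± 0.42 (adjusted p = 0.0492). Fbn1 averaged 59.1 ± 21.2 CPM after peat smolder and 28.5 ± 8.96 CPM after saline, with a rise of 1.05 ± 0.26 (adjusted p = 0.0231) and 4 of 6 hearts above saline. Pamr1 averaged 5.72 ± 2.52 CPM after peat smolder and 1.49 ± 0.966 CPM after saline, with a rise of 1.95 ± 0.53 (adjusted p = 0.0338) and 5 of 6 hearts above saline. Fn1 was 66.9 to 176 CPM (median 97.3) after peat smolder, above every saline heart, and its change of 1.20 ± 0.41 was not called (adjusted p = 0.0949). The changes of Thbs2 (0.77 ± 0.25), Tnc (1.87 ± 0.62), Lum (0.51 ± 0.19), Thbs1 (1.97 ± 0.77) and Dcn (0.46 ± 0.18) were not called either, at adjusted p of 0.0749 to 0.145. Leaving out any 1 heart kept the call of Pdgfra, while that of Postn was lost in 21 of 30 such fits, that of Pamr1 in 7 and that of Fbn1 in 3. Postn also lost it in 7 of 10 other settings, single probes among them. Without the hearts of high Myl7, of which peat smolder had 2, 0.441% of all genes rose. Of the 10 genes Pdgfra alone was then called (0.71 ± 0.15, adjusted p = 0.0276), while Postn changed by 1.08 (adjusted p = 0.0922), Fbn1 by 0.83 (0.0906) and Pamr1 by 1.60 (0.0765).

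Peat flame and red oak smolder gave 0 calls among the 10 genes by edgeR, where 0.0358% and 0% of all genes rose. At an unadjusted p under 0.05 these smokes had 7 and 3 of the 10 genes, and 1303 and 700 of all 11179 genes. DESeq2 called 1 and 0 of the 10. Pdgfra was 83.2 to 159.8 CPM (median 133.9) after peat flame and 50.8 to 134.2 CPM (median 86.96) after red oak smolder. The peat flame hearts lay above every saline heart in 5 of 6 animals (0.77 ± 0.18, adjusted p = 0.125), whereas the red oak smolder hearts overlapped with saline (0.22 ± 0.18, adjusted p = 0.914). Fbn1 averaged 54.6 ± 17.8 CPM after peat flame and 38.8 ± 14.7 CPM after red oak smolder, against 28.5 ± 8.96 CPM after saline. Red oak smolder heart 4, which had high Myl7, had the highest level of its group for every gene except Thbs1, Fn1 and Postn among them at 187 and 351 CPM. The fitted changes of all 10 genes were above 0 in each of the 4 smokes, but these comparisons share the same 6 saline hearts. High Myl7 was found in 7 of the 24 smoke hearts and in 0 of the 6 saline hearts. The median change over all genes was 0.00071 to 0.031 in the 4 smokes, and the share of all genes above 0 in each was not counted.

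Taken as the mean of the 4 smokes, 3 of the 10 genes rose, where 1.4% of all genes rose. Pdgfra averaged 127.99 ± 38.1 CPM over 24 smoke hearts and 75.6 ± 9.61 CPM over 6 saline hearts (0.73 ± 0.15, adjusted p = 0.0186), with 20 of 24 above every saline heart. Fbn1 (0.95 ± 0.22, adjusted p = 0.0251) and Pamr1 (1.68 ± 0.46, adjusted p = 0.0487) were the others, each with 15 of 24 above saline. The call of Pamr1 was lost in 17 of 30 fits that left out 1 heart and in 5 of 6 other settings, that of Fbn1 in 4 and 0, and that of Pdgfra in 2 and 0. Without the hearts of high Myl7, Pdgfra (0.60, adjusted p = 0.0152) and Fbn1 (0.83, adjusted p = 0.0358) were called and Pamr1 was not (adjusted p = 0.0731), where 0.467% of all genes rose. Left without saline heart 2 or saline heart 4, the count was 0, and it was 1 without saline heart 1. DESeq2 called 7.

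No difference between flaming and smoldering smokes was called in heart by edgeR, with 0 of 10 called where 0.0358% of all genes were called, and DESeq2 called 0. At an unadjusted p under 0.05 there were 4 of the 10, and 1904 of all 11179 genes. Pdgfra averaged 141 ± 32.1 CPM after the 2 flaming smokes and 114.9 ± 40.3 CPM after the 2 smoldering ones (0.33 ± 0.13, adjusted p = 0.19). Without the hearts of high Myl7, Thbs2 was higher after the flaming smokes by 0.77 (adjusted p = 0.0344), where 0.115% of all genes were higher. With all hearts the Thbs2 difference was 0.52 ± 0.18 (adjusted p = 0.155).

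**Figure D2:**
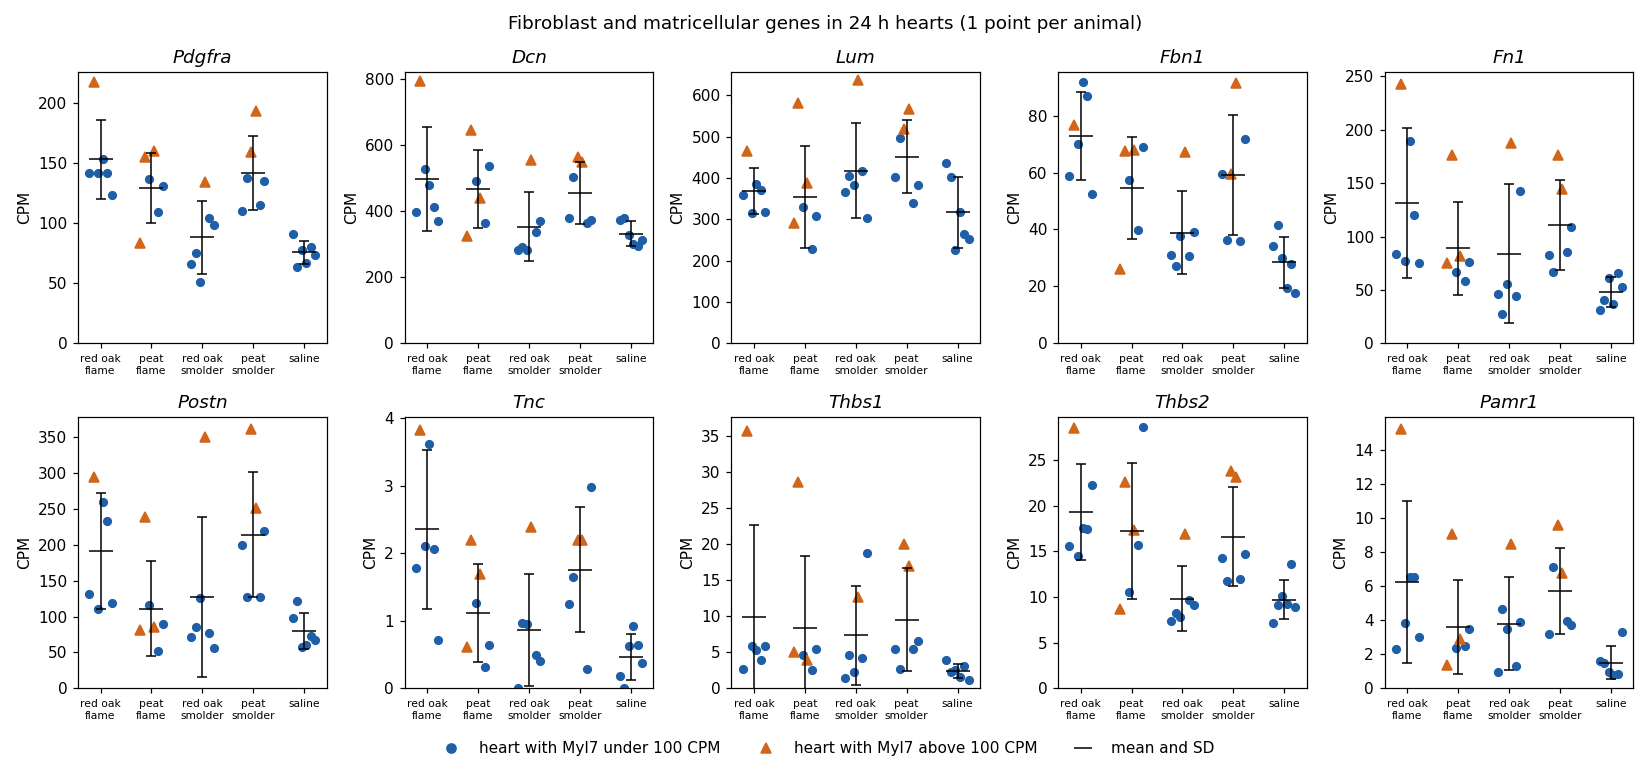
CPM of the 10 genes in every heart, by group (red oak flame, peat flame, red oak smolder, peat smolder, saline), with bars for mean ± SD, cut at 0, and orange triangles for the 7 hearts with Myl7 above 100 CPM. Red oak flame hearts lie above all saline hearts for Pdgfra, Fbn1, Thbs2 and Fn1, and the orange hearts are often the highest of their group. The share of all genes separated in this way was not counted.

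Other genes of the same pathways also rose in heart. Of the 7 lists of ligands, receptors, matrix genes and fibroblast markers, 19 of the 85 genes tested rose after red oak flame, 11 after peat smolder and 9 in the mean of the 4 smokes, and 0 fell. By edgeR 0 of the 85 were called after peat flame, red oak smolder or in flaming against smoldering, with 24, 6 and 14 of them at an unadjusted p under 0.05. Of all 11179 genes 1303, 700 and 1904 passed that unadjusted threshold. Without the hearts of high Myl7 the counts were 15 after red oak flame, 5 after peat smolder, 5 in the mean and 2 in flaming against smoldering. There 3.01%, 0.441% and 0.467% of all genes rose, and 0.115% were higher after flaming. The lists were tested with edgeR alone.

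The partners of PDGFRA moved in part. Of 6 PDGF ligands and receptors, 2 rose after red oak flame: Pdgfrb, the receptor of pericytes and fibroblasts, by 1.02 ± 0.25 (adjusted p = 0.00804), and Pdgfrl by 1.17 ± 0.39 (adjusted p = 0.0438). After peat smolder 0 of the 6 rose by edgeR. Among 18 TGF-beta genes 3 rose after red oak flame, namely the latent TGF-beta binding protein Ltbp4 by 1.28 ± 0.29, the ligand Tgfb2 by 0.84 ± 0.20 and the receptor Tgfbr2 by 0.88 ± 0.21. Of these, Tgfb2 (0.87 ± 0.20) and Ltbp4 (1.03 ± 0.28) rose after peat smolder, and Tgfb2 rose in the mean of the 4 smokes (0.69 ± 0.16).

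Elastic fibre genes, the partners of fibrillin-1, rose in 5 of 11 after red oak flame, led by the fibulin Fbln2 (0.83 ± 0.16), Emilin1 (1.02 ± 0.23) and the crosslinking enzyme Loxl1 (1.33 ± 0.30). In that list 3 of 11 rose after peat smolder and 3 in the mean of the smokes, and these were Fbln2 (0.86 ± 0.16 and 0.63 ± 0.13), Emilin1 (0.91 ± 0.23 and 0.71 ± 0.19) and Fbln5 (1.13 ± 0.31 and 0.94 ± 0.26). Of 8 other small leucine-rich proteoglycans, 3 rose after red oak flame, Prelp by 1.43 ± 0.32, biglycan (Bgn) by 1.09 ± 0.27 and Podn by 1.40 ± 0.47, and Prelp (1.45 ± 0.32) and Bgn (1.21 ± 0.27) rose after peat smolder too. The mean of the smokes gave 1.09 ± 0.27 for Prelp and 0.81 ± 0.22 for Bgn, both called.

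Of 13 receptors for matricellular proteins 2 rose after red oak flame, Lrp1 by 1.42 ± 0.25 (adjusted p = 0.00153) and the integrin chain Itgav by 0.63 ± 0.15. Lrp1, an endocytic receptor that takes up thrombospondins, also rose after peat smolder (1.36 ± 0.25) and in the mean of the smokes (0.96 ± 0.21). Of 13 other matricellular genes Sparcl1 alone rose, by 0.68 ± 0.16 after red oak flame, 0.83 ± 0.16 after peat smolder and 0.51 ± 0.13 in the mean. Among 17 other fibroblast markers 3 rose after red oak flame, the proteoglycan Vcan by 1.34 ± 0.26, Pi16 by 0.72 ± 0.22 and Col14a1 by 1.23 ± 0.38. Peat smolder gave 2, Vcan (1.40 ± 0.26) and Clec3b (0.55 ± 0.14), and the mean of the smokes 1, Vcan (1.03 ± 0.22).

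Markers of other cells moved beside these genes. Summed over 18 genes, the other fibroblast markers stood at 1237 to 1726 CPM in red oak flame hearts, 1239 to 1652 CPM in peat smolder hearts and 1064 to 1364 CPM in saline hearts. The 12 macrophage and monocyte markers summed to 45.1 to 66.6 CPM after red oak flame and 26.2 to 44.1 CPM after saline, with Csf1r (1.07 ± 0.21) and Cd68 (0.73 ± 0.23) called, and Csf1r rose after peat smolder (0.74 ± 0.21) and in the mean of the smokes (0.65 ± 0.17). Heart muscle markers summed to 31962 to 42785 CPM after red oak flame, 37730 to 45258 after peat flame, 30255 to 44502 after red oak smolder, 36698 to 41283 after peat smolder and 40722 to 48488 CPM after saline, and the ventricular light chain Myl2 fell by 0.66 ± 0.16 after red oak flame, 0.65 ± 0.16 after peat smolder and 0.51 ± 0.12 in the mean. Of 12 smooth muscle and pericyte markers 3 rose after red oak flame, Cspg4 (1.09 ± 0.30), Myh11 (1.82 ± 0.57) and Actg2 (3.09 ± 0.99), and Actg2 rose after peat smolder (3.60 ± 0.97). Markers of mesothelium, platelets, neutrophils and lung gave 0 calls of 7, 2, 4 and 3 tested by edgeR. The part of these cells in the rise of the 10 genes was not tested.

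Without the hearts of high Myl7, 15 of the 19 listed genes called after red oak flame kept their call, with Pdgfrb at 0.99 ± 0.24, Lrp1 at 1.23 ± 0.21 and Vcan at 1.10 ± 0.18. Pdgfrl, Podn, Col14a1 and Pi16 lost it (adjusted p of 0.0573 to 0.137), and so did the cell markers Cspg4 (adjusted p = 0.0555) and Cd68 (adjusted p = 0.088), while Csf1r, Myh11 and Actg2 still rose and Myl2 still fell, by 0.58 ± 0.15. After peat smolder 5 of 11 kept it, Vcan (1.22 ± 0.19), Lrp1 (1.10 ± 0.22), Sparcl1 (0.88 ± 0.18), Prelp (1.11 ± 0.24) and Fbln2 (0.72 ± 0.16). The peat smolder calls of Tgfb2, Ltbp4, Bgn, Fbln5, Emilin1 and Clec3b were lost (adjusted p of 0.0573 to 0.258), as were those of Csf1r (adjusted p = 0.136), Actg2 (adjusted p = 0.072) and Myl2 (-0.54 ± 0.16, adjusted p = 0.106). Myh11 was called there without those hearts (1.07 ± 0.24) and not with them. In the mean of the smokes 5 of 9 kept it, Vcan (0.81 ± 0.15), Fbln2 (0.58 ± 0.12), Fbln5 (0.62 ± 0.13), Lrp1 (0.82 ± 0.18) and Prelp (0.81 ± 0.19), and Tgfb2, Sparcl1, Bgn, Emilin1, Csf1r and Myl2 were no longer called (adjusted p of 0.051 to 0.108). Between flaming and smoldering smokes, Loxl1 (0.99 ± 0.19, adjusted p = 0.0311) and Pdgfrb (0.93 ± 0.19, adjusted p = 0.0397) were then higher after flaming.

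The smoke effect in heart was set against that in lung of the same 24 h animals. Of 40 pairs of gene and smoke, 1 was called by edgeR, where 0.0255% of all pairs were called, and DESeq2 called 5. At an unadjusted p under 0.05 there were 19 of the 40. Of all 13746 genes 1564 passed that threshold for red oak flame, 745 for peat flame, 729 for red oak smolder and 530 for peat smolder. The pair called by edgeR was Pdgfra after red oak flame: the change was larger in heart by 1.43 ± 0.29 on the log2 scale (adjusted p = 0.028). In lung Pdgfra averaged 698 ± 188 CPM after red oak flame and 936 ± 152 CPM after saline, a change of -0.42 ± 0.22 that was not called. The difference between tissues was 1.43 ± 0.29 after peat flame (adjusted p = 0.0688), 0.58 ± 0.29 after red oak smolder (adjusted p = 0.807) and 0.95 ± 0.29 after peat smolder (adjusted p = 0.878). For Fbn1, Fn1 and Tnc after red oak flame it was 1.59 ± 0.44, 2.13 ± 0.60 and 2.72 ± 0.80, none of them called (adjusted p = 0.118, 0.133 and 0.148). Red oak flame lung 6 stood apart from its group, with Fn1 at 19.4 CPM against 309 CPM or more in the other 5, Lum at 0.720 CPM and Dcn at 279 CPM. The Pdgfra call held without the hearts of high Myl7 (1.33, adjusted p = 0.0457), with the animal as a block (1.47, adjusted p = 0.038), and once the 6 lungs with few detected genes were dropped (1.29, adjusted p = 0.0214), and was lost in 7 of 30 fits that left out both tissues of 1 animal, with no filter on low counts, and for 1 of its 2 probes. In the lists, Ltbp4 (2.08 ± 0.46), Prelp (2.38 ± 0.53) and Lrp1 (1.71 ± 0.35) were called in the same direction after red oak flame.

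No relation between the levels of a gene in heart and lung of the same animal was detectable over 30 animals. With group means removed, Pearson's r and Spearman's rho between the log2 CPM of heart and lung passed for 0 of 10 genes by permutation with adjustment over the 10. The largest r was that of Tnc, with r = 0.40 (p = 0.0299, adjusted p = 0.299) and Spearman's rho = 0.19 (p = 0.31, adjusted p = 0.789), and r fell to 0.0798 without the 2 animals farthest from the median. For Pdgfra r was 0.27 and rho 0.31 (p = 0.156 and 0.0978, adjusted p = 0.78 and 0.789).

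**Figure D3:**
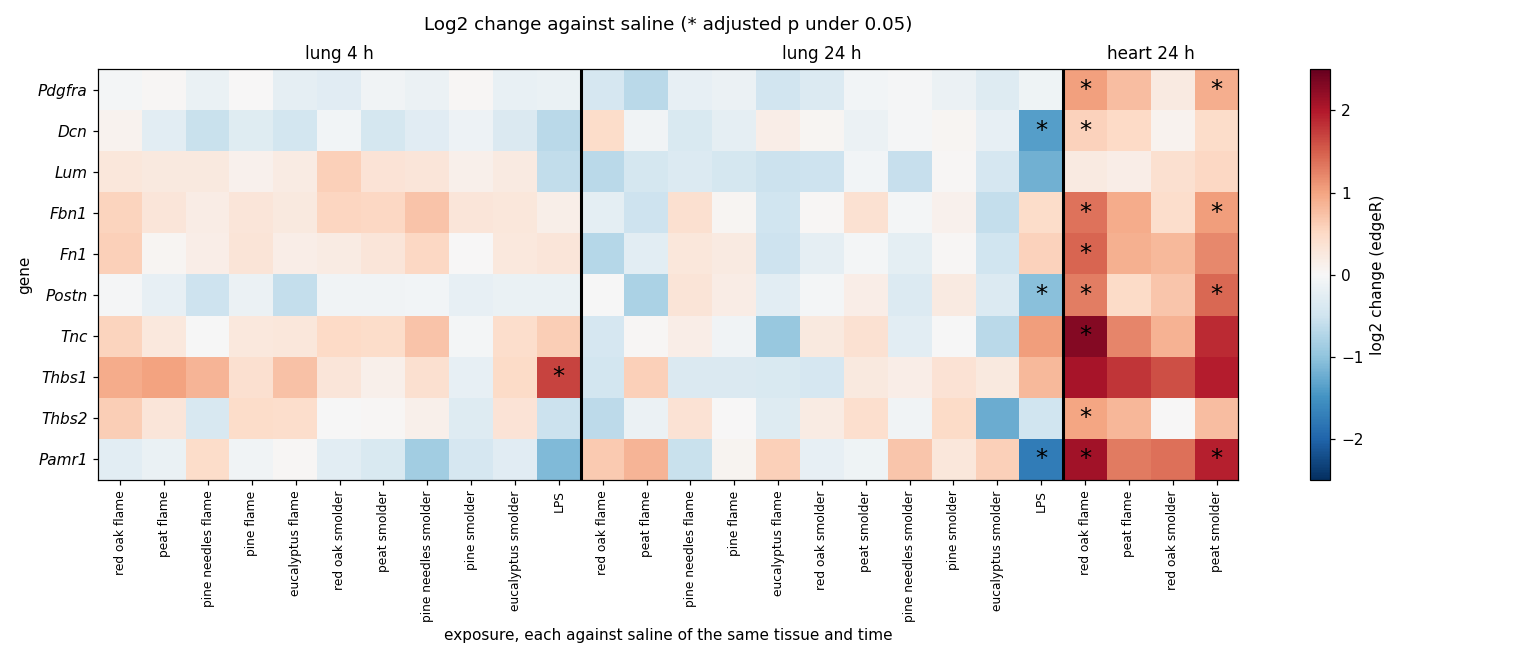
Log2 change against saline of the 10 genes (rows) for each exposure (columns) in lung at 4 h, lung at 24 h and heart at 24 h, with an asterisk where the adjusted p is under 0.05. Heart columns are above 0 for all 10 genes, with calls after red oak flame and peat smolder, and in lung the calls are those of LPS.

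In lung, 1 of the 10 genes changed after LPS at 4 h and 3 changed at 24 h. Thbs1 rose at 4 h, where 5.48% of the 14458 genes tested rose, and Dcn, Postn and Pamr1 fell at 24 h, where 4.51% of the genes fell. Thbs1 encodes thrombospondin-1, which is stored in platelets, made by injured tissue and activates latent TGF-beta. At 4 h its level was 993, 992, 368 and 276 CPM in the 4 LPS lungs and 91.9 to 349 CPM (median 174) in the 6 saline lungs. In 3 of 4 LPS lungs it stood above every saline lung, and the change was 1.68 ± 0.37 (adjusted p = 0.00058). By 24 h it was 401, 569, 418 and 262 CPM after LPS and 129.1 to 356 CPM (median 239) after saline, with overlapping groups and a change of 0.82 ± 0.37 (adjusted p = 0.156).

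Decorin at 24 h was 33.1, 41.7, 29.1 and 30.02 CPM in LPS lungs and 61.6 to 139.4 CPM (median 80.5) in saline lungs. Every LPS lung lay below every saline lung, and the change was -1.38 ± 0.30 (adjusted p = 0.000313), which held in each of 10 fits that left out 1 LPS or saline lung. Postn was 215, 166, 240.2 and 233 CPM after LPS and 227 to 751 CPM (median 419) after saline, an overlap at the lower end of saline, with a change of -1.04 ± 0.32 (adjusted p = 0.018). Pamr1 was 20.7, 20.7, 25.97 and 61.8 CPM after LPS and 50.97 to 225 CPM (median 107.7) after saline, overlapping in 1 LPS lung, with a change of -1.74 ± 0.57 (adjusted p = 0.0267). Both calls were lost without LPS lung 1 or LPS lung 2, which left Dcn as the single call, and in the 24 h lungs of plate 2 alone. Over 10 fits that left out 1 lung, Pamr1 lost its call in 4 and Postn in 3. Among the other settings, plate 2 alone included, Postn lost it in 5 of 12, most of its single probes among them. Pamr1 lost it there in 2 of 9, the other being 24 h fitted alone. Without the 6 libraries of few detected genes, which are all smoke lungs, 5 of the 10 genes were called.

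Among the genes that were not called at 24 h, Lum averaged 10.9 ± 5.23 CPM after LPS and 25.3 ± 7.85 CPM after saline (-1.20 ± 0.47, adjusted p = 0.0796), and Tnc averaged 56.8 ± 50.6 CPM after LPS and 27.5 ± 9.76 CPM after saline (1.04 ± 0.44, adjusted p = 0.114), with 1 LPS lung at 132.2 CPM. Fn1 (0.57 ± 0.39), Fbn1 (0.47 ± 0.33), Thbs2 (-0.50 ± 0.71) and Pdgfra (-0.11 ± 0.25) had adjusted p of 0.403, 0.425, 0.74 and 0.849. The median change of the 10 genes was -0.31 at 24 h, against -0.12 over all genes, and -0.16 at 4 h, against -0.044. The change of the LPS effect between 4 h and 24 h was called for 0 of the 10 genes by edgeR, where 0.581% of all genes were called, for 0 at an unadjusted p under 0.05 and for 0 by DESeq2. The Thbs1 effect was -0.87 ± 0.54 at 24 h relative to 4 h and that of Dcn -0.71 ± 0.41.

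**Figure D4:**
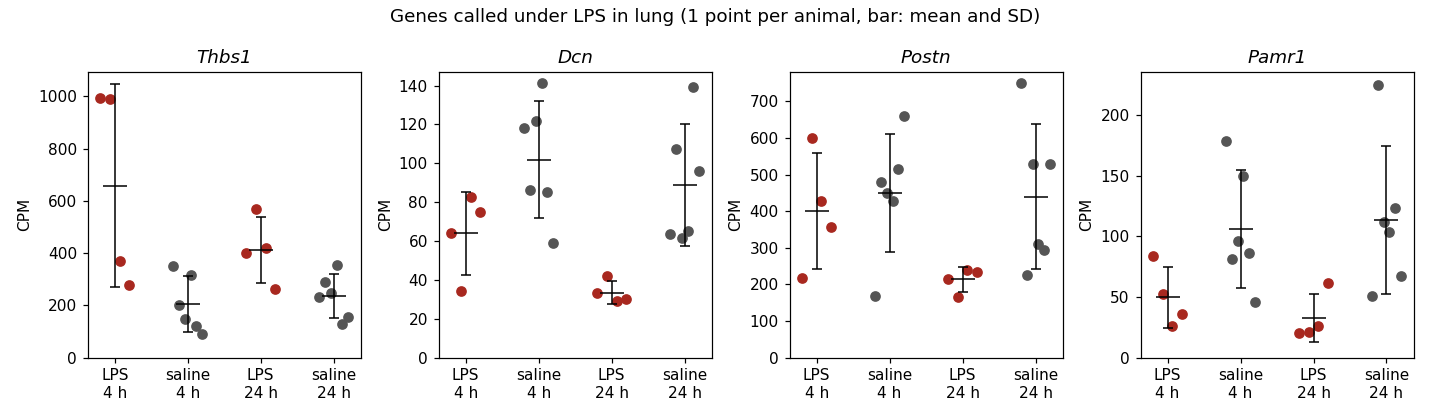
CPM of Thbs1, Dcn, Postn and Pamr1 in each lung after LPS (n = 4) and saline (n = 6) at 4 h and 24 h, with mean ± SD. Thbs1 lies above saline in 3 of 4 LPS lungs at 4 h, and Dcn lies below all saline lungs at 24 h.

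Small leucine-rich proteoglycans fell together with decorin. Of 8 others tested, 0 rose and 6 fell at 24 h, among them Ecm2 (-1.69 ± 0.22), Ogn (-1.97 ± 0.39) and Fmod (-2.62 ± 0.61), and 2 had fallen at 4 h, Ecm2 (-0.92 ± 0.21) and Podn (-1.22 ± 0.36). Elastic fibre genes gave 2 rises and 4 falls of 13 at 24 h, with Emilin1 up (1.001 ± 0.19) and the fibulins Fbln2 (-2.30 ± 0.40) and Fbln1 (-1.32 ± 0.27) down, and 0 calls at 4 h by edgeR. Of 18 other fibroblast markers 1 rose and 7 fell at 24 h: Vcan rose by 3.05 ± 0.37, and Clec3b (-2.13 ± 0.32) and Col14a1 (-3.80 ± 0.76) were among those that fell. At 4 h Vcan rose by 3.35 ± 0.37, and Cdh11 (-1.25 ± 0.29) and Clec3b (-0.94 ± 0.30) fell. The LPS effect was lower at 24 h than at 4 h for Fbln2 (-2.00 ± 0.53, adjusted p = 0.0433) and Col14a1 (-3.52 ± 0.94, adjusted p = 0.047).

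Among the TGF-beta genes at 24 h, the ligand Tgfb1 rose by 1.0 ± 0.35 and the latent TGF-beta binding protein Ltbp4 fell by 1.08 ± 0.34. Tgfbi, a matricellular target of TGF-beta, was the 1 call of 15 other matricellular genes at 24 h (2.81 ± 0.54). Receptors for matricellular proteins gave 2 rises of 15 at 4 h, Egfr (0.92 ± 0.19) and the syndecan Sdc4 (1.30 ± 0.39), and at 24 h Lrp1 rose (0.73 ± 0.24) and the integrin chain Itga8, a fibroblast gene, fell (-1.77 ± 0.53). For Egfr the LPS effect was lower at 24 h than at 4 h (-1.16 ± 0.27, adjusted p = 0.0169). PDGF ligands and receptors gave 0 calls of 6 by edgeR at both times.

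Other cell types moved with these genes. Neutrophil markers summed to 594 to 1994 CPM after LPS and 126.1 to 302 CPM after saline at 4 h, and to 1298 to 2031 CPM after LPS and at most 194 CPM after saline at 24 h, with 9 of 10 markers risen at each time. The 3 of smallest p were Retnlg (2.84 ± 0.46), Cxcr2 (3.43 ± 0.56) and Ly6g (1.79 ± 0.31) at 4 h and Ly6g (3.69 ± 0.32), Retnlg (4.08 ± 0.48) and Mmp9 (2.82 ± 0.42) at 24 h. Macrophage and monocyte markers gave 1 rise of 11 at 4 h, Ly6c2 (1.94 ± 0.47), and 6 rises and 1 fall at 24 h, led by Ly6c2 (4.41 ± 0.49), Adgre1 (2.91 ± 0.41) and Csf1r (1.28 ± 0.23). The other fibroblast markers summed to 3113 to 6531 CPM after LPS and 5466 to 11286 CPM after saline at 24 h. At 4 h the pericyte gene Mcam rose (0.90 ± 0.30, 1 of 11 smooth muscle and pericyte genes) and the mesothelial gene Lrrn4 fell (-1.89 ± 0.64, 1 of 8). By 24 h smooth muscle markers fell in 3 of 11 (Cnn1 -1.91 ± 0.48, Tagln -1.17 ± 0.36, Actg2 -1.46 ± 0.46) and mesothelial ones in 2 of 8 (Upk3b -1.94 ± 0.60, Gpm6a -1.29 ± 0.45). Heart muscle transcripts in lung also fell, in 4 of 8 genes, among them Tnni3 (-2.24 ± 0.61), Myl7 (-2.99 ± 0.83) and Ryr2 (-2.05 ± 0.64), and summed to 123.3 to 178 CPM after LPS and 253 to 1069 CPM after saline. Of the lung markers 1 of 8 fell, the club cell gene Scgb1a1 (-0.90 ± 0.32). Platelet markers gave 0 calls of 7 at either time by edgeR. The part of these cells in the changes of the 10 genes was not tested.

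None of the 10 smokes was shown to change these genes in lung against saline. Of 100 pairs of gene and smoke at 4 h, 0 were called by edgeR, where 0.0456% of all pairs were called, 7 had an unadjusted p under 0.05 and DESeq2 called 0. At 24 h 0 of 100 were called, where 0.187% of all pairs were called, 6 had an unadjusted p under 0.05 and DESeq2 called 0. At that unadjusted threshold single smokes had 259 to 1742 of all 14458 genes at 4 h and 239 to 2977 at 24 h. The mean of the 10 smokes gave 0 calls of 10 genes at 4 h and 0 at 24 h, where 0% and 0.00692% of all genes were called, and 0 at an unadjusted p under 0.05 or by DESeq2 at either time. By edgeR 0 of the 93 listed pathway and fibroblast genes were called in these means, with 11 and 8 at an unadjusted p under 0.05. Of all 14458 genes 763 and 514 passed that unadjusted threshold in the means. Among the single smokes 1 listed gene was called, the fibroblast marker Limch1 after red oak flame at 24 h (1.82 ± 0.53, adjusted p = 0.0448). Red oak flame lung 6, a library of few detected genes, held it at 50348 CPM, and it lay at 1090 to 3427 CPM in the other 5 lungs of that smoke and at 1422 to 4980 CPM in saline lungs.

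All smokes of a time share its 6 saline lungs. Saline lung 1 of 4 h stood below the rest, with Pdgfra at 265 CPM against 701 to 1200 CPM, and leaving out any 1 lung gave 0 calls at either time by edgeR. At 4 h Fbn1 changed by 0.18 to 0.71 on the log2 scale over the 10 smokes and averaged 72.1 ± 20.4 CPM in 60 smoke lungs and 55.1 ± 15.05 CPM in 6 saline lungs. Thbs1 changed by -0.20 after pine smolder to 1.01 after peat flame (adjusted p = 0.342), and had the largest mean change, 0.50 ± 0.26 (adjusted p = 0.979), with 301 ± 118.3 CPM after smoke and 205 ± 106.3 CPM after saline. At 24 h Pdgfra changed by -0.67 to -0.027 and averaged 774 ± 165 CPM after smoke and 936 ± 152 CPM after saline. Peat flame gave the lowest values there, 437 to 746 CPM (median 580.5) against 713 to 1116 CPM (median 933) in saline lungs (-0.67 ± 0.22, adjusted p = 0.505).

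Thbs1 differed between the burning phases at 4 h. It was the 1 of 10 genes called higher after flaming than after smoldering smokes, where 1.72% of all genes were higher, and DESeq2 called 1. At an unadjusted p under 0.05 there were 2 of the 10, and 2770 of all 14458 genes. Thbs1 ran from 164 to 585 CPM (median 349) over 30 lungs of flaming smokes and from 126.5 to 466 CPM (median 222) over 30 lungs of smoldering smokes (0.56 ± 0.16, adjusted p = 0.0301). The ranges overlapped widely. By fuel, Thbs1 averaged 389 ± 128.9 CPM after flaming and 253 ± 89.8 CPM after smoldering red oak, and 413 ± 129.7 CPM after flaming and 225 ± 35.9 CPM after smoldering peat. Pine needles gave 370.1 ± 171 CPM flaming and 282 ± 66.02 CPM smoldering, pine gave 272 ± 112.6 CPM flaming and 178 ± 37.9 CPM smoldering, and eucalyptus gave 340.1 ± 46.2 CPM flaming and 284 ± 105.4 CPM smoldering (SD, n = 6 each). Flaming was thus the higher mean in all 5 fuels, and saline lungs averaged 205 ± 106.3 CPM. The call was lost without pine needles smolder lung 1 (the only lung of its group on plate 1), pine needles flame lung 5 or pine flame lung 1, and held in plate 1 alone.

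At 24 h no difference between the phases was called by edgeR, with 0 called where 0.111% of all genes were, and DESeq2 called 0. At an unadjusted p under 0.05 there were 2 of the 10, and 907 of all 14458 genes. Thbs1 then averaged 214 ± 106.3 CPM after flaming and 258 ± 128.2 CPM after smoldering smokes (-0.31 ± 0.15, adjusted p = 0.754). Of the 93 listed genes 1 was called between the phases at 4 h, Wisp2, with 19.9 ± 9.03 CPM after flaming and 12.4 ± 4.48 CPM after smoldering smokes (0.75 ± 0.22, adjusted p = 0.0411). Among the markers of other cells, the platelet gene Gp5 was lower after flaming smokes (-0.69 ± 0.19, 1 call of 7 platelet genes), and Myl2 was higher (1.41 ± 0.39, 1 of 8 heart muscle genes) at 1.56 ± 4.44 CPM after flaming and 0.472 ± 0.361 CPM after smoldering smokes. The part of these cells in the Thbs1 difference was not tested.

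**Figure D5:**
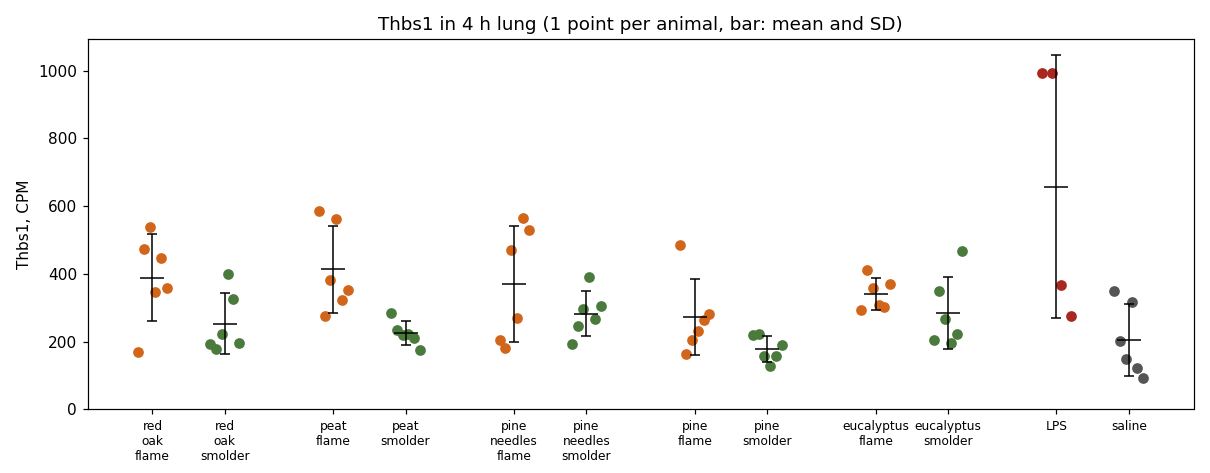
Thbs1 CPM in each lung at 4 h for the 10 smokes, LPS and saline, with mean ± SD. For each fuel the flaming mean lies above the smoldering mean, with overlap between animals, and 3 of 4 LPS lungs lie above every saline lung.

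Among the 10 smokes at 24 h, 3 of the 10 genes differed between smokes (F test over the 10 groups, edgeR), where 18% of all genes did. Postn (adjusted p = 0.0278) was lowest after peat flame, at 149.8 to 486 CPM (median 210.1), and highest after pine needles flame, at 466 to 624 CPM (median 569.9). Fbn1 (adjusted p = 0.0304) ran from 56.02 ± 19.9 CPM after eucalyptus smolder to 111.4 ± 20.2 CPM after pine needles flame. Thbs1 (adjusted p = 0.0353) ran from 171 ± 90.8 CPM after red oak flame to 354 ± 119.4 CPM after peat flame. Neighbours in these orders overlapped. At an unadjusted p under 0.05 there were 4 of the 10 genes, and 4314 of all 14458 genes. DESeq2 called 2 of the 10. Over the other settings the call of Postn was lost in 7 of 11, with each of its probes tested alone among them. That of Thbs1 was lost in 5 of 8, DESeq2 among them, and that of Fbn1 in 2 of 8. Leaving out the 6 libraries of few detected genes left 1 of the 3 called, Fbn1, fitting 24 h alone left 0, and without peat flame lung 1, 2 or 3 the count was 0, 1 or 0. At 4 h 0 of the 10 genes differed by edgeR, where 0.609% of all genes did, and 0 by DESeq2. At an unadjusted p under 0.05 there was 1 of the 10, and 943 of all 14458 genes. Of the 93 listed genes 1 differed among the smokes at 4 h, Podn (adjusted p = 0.00466). It ran from 56.5 ± 16.2 CPM after eucalyptus smolder to 159 ± 188 CPM after red oak flame. At 24 h 13 of the 93 differed, where 18% of all genes did. Those of smallest p at 24 h were Limch1 and the elastic fibre genes Mfap4 and Eln. Limch1 averaged 9760 ± 19904 CPM after red oak flame, where lung 6, a library of few detected genes, held it at 50348 CPM. Elastin (Eln) averaged 549 ± 556 CPM after peat flame and 67.6 ± 24.5 CPM after pine needles flame, and Mfap4 53.9 ± 57.3 CPM after peat flame and 4.38 ± 1.85 CPM after pine needles flame (SD, n = 6 each).

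Between animals of 1 group, most pairs of these genes were correlated in lung, as were most pairs of all genes. With group means removed, 39 of the 45 pairs of genes were correlated over 140 lungs (Pearson's r of log2 CPM, permutation test, adjusted p under 0.05 over the 45), 24 of them positively, and the median r was 0.25. Over all 104509653 pairs of the 14458 genes, 64.5% had an r at least as far from 0 as the weakest of the 39, 0.21, and the median r was 0.06, so the count of 39 (86.7%) stands against a high background. Fn1 and Fbn1 were the closest, a value reached by 3.1% of all pairs, with r = 0.77 and rho = 0.76 (p = 1e-05, the smallest that 100000 permutations can give, adjusted p = 1.73e-05 and 2.05e-05), and r = 0.76 without the 2 lungs farthest from the median. Within plate 1 r was 0.76 (n = 70), within plate 2 0.77 (n = 58), and once the lungs with few detected genes were dropped 0.76.

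Tnc and Fbn1 followed with r = 0.72 and rho = 0.62 (same p, 0.66 without the 2 farthest, 0.59 and 0.81 within plates, 0.58 once the lungs with few detected genes were dropped). Pdgfra and Fn1 had r = 0.66 and rho = 0.60, and Postn and Fbn1 r = 0.63 and rho = 0.65, each at the same smallest p. Their r without the 2 farthest lungs was 0.65 and 0.61. Pamr1 and Dcn ran against these genes. Postn and Pamr1 had r = -0.61 and rho = -0.62, Fn1 and Dcn r = -0.60 and rho = -0.56, and Pamr1 and Dcn r = 0.43 and rho = 0.37, with p of 1e-05 to 2e-05. Without the 2 farthest lungs r was -0.62, -0.55 and 0.37. Over the settings tried, 28 (plate 1 alone) to 39 of the 45 pairs were called. The libraries share depth, number of detected genes and tissue sampled, and the part of these in the correlations was not tested.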

How the data were processed

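RNA of mouse lung and heart was measured by TempO-Seq, a targeted probe assay, and the labels' protocol also names a 3' mRNA library kit, so the chemistry is stated in 2 ways. The deposited values are raw counts per probe, made by the authors. Bowtie and DESeq2 are named, without versions, per the submitters' processing notes. No genome build is given in the sources used here, and the 10 genes, the related lists and the tests were chosen with earlier results of these data known.

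Probe counts were summed per symbol and tested in R 4.3.3 with edgeR 4.0.16 (limma 3.58.1; TMM scaling, filterByExpr, quasi-likelihood F test), in 3 fits: 140 lungs with group and plate (14458 genes), 30 hearts with group (11179 genes), and 60 hearts and lungs of the same 24 h animals with group and plate (13746 genes). Adjusted p is Benjamini-Hochberg over all genes of a fit, called under 0.05, and changes are log2 ± SE. DESeq2 1.42.0 was an alternative, and its counts of called genes are given without its share over all genes. Correlations used log2(CPM + 0.5) with 100000 permutations. Of the 10 genes, all that these 3 fits called are named in each comparison of groups, and those not called are named in some comparisons only. Of each related list the 3 called genes of smallest p are named. For the TGF-beta list in lung after LPS, 1 result is not reported here. Of the 4 h lungs 65 were on plate 1 and 5 on plate 2, of the 24 h lungs 17 and 53, and all 30 hearts were on plate 2. Replicate numbers pair hearts with lungs of 1 animal, and a fit with the animal as a block was an alternative.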

Additional observations from a re-analysis of the deposited data

Results flagged for a closer look

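Single animals far from the rest of their group were looked for in 290 groups of 1 gene and 1 exposure, and 27 were found (9.31%, where chance gives about 1 in 20), 8 high and 19 low. Of these 13 came from the 6 lung libraries of 24 h with fewer than 13000 detected genes.

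Red oak flame lung 6 at 24 h was one of those 6. In it Pdgfra was 348 CPM (664 to 890 CPM in the other 5 lungs), Tnc 0.720 CPM (13.2 to 29.6), Fn1 19.4 CPM (309 to 465), Lum 0.720 CPM (14.1 to 26.7) and Fbn1 22.3 CPM (71.04 to 97.4), while Dcn was high at 279 CPM (81.95 to 120.6). Eucalyptus flame lung 5 had Tnc at 0.446 CPM (11.6 to 23.3), Lum at 0 CPM (14.2 to 35.2) and Fbn1 at 14.3 CPM (52.3 to 83.95). Pine flame lung 6 had Fn1 at 344 CPM (605 to 848) and Fbn1 at 21 CPM (87.3 to 124.3), and Thbs2 was at 0 CPM in pine smolder lung 4 (2.92 to 6.43) and peat flame lung 3 (2.13 to 3.90).

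Saline lung 1 at 4 h was low in Pdgfra at 265 CPM (701 to 1200) and in Postn at 167 CPM (428 to 659). Red oak flame lung 1 at 4 h was low in Pdgfra at 570.0 CPM (756 to 851) and high in Dcn at 303 CPM (54.6 to 82.6). Pine needles smolder lung 2 at 24 h was low in Tnc at 8.82 CPM (23.1 to 26.9) and Fbn1 at 40.1 CPM (85.95 to 124.02). Fbn1 was also low in pine needles flame lung 2 at 4 h at 22.7 CPM (54.8 to 89.4) and high in peat smolder lung 3 at 24 h at 183 CPM (81.1 to 108.3). Dcn was low in peat smolder lung 2 at 24 h at 69.4 CPM (78.9 to 84.5) and high in pine needles flame lung 4 at 24 h at 81.4 CPM (62.9 to 67.6).

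The 4 high values in heart all came from hearts of high Myl7. Thbs1 was 35.7 CPM in red oak flame heart 2 (2.60 to 5.88) and 28.5 CPM in peat flame heart 2 (2.46 to 5.44), Fn1 was 177 CPM in peat flame heart 2 (58.1 to 81.6), and Thbs2 was 16.9 CPM in red oak smolder heart 4 (7.34 to 9.62).

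The effect of red oak flame differed between the tissues for Pdgfra, larger in heart than in lung by 1.43 on the log2 scale (edgeR, adjusted p = 0.028). Between the 10 smokes at 24 h Postn (adjusted p = 0.0278), Fbn1 (adjusted p = 0.0304) and Thbs1 (adjusted p = 0.0353) differed in lung by edgeR.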

How the results depend on the processing

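The alternatives counted here are all but those that left out 1 library or 1 animal at a time, and some of them dropped sets of libraries. Over them, 93 counts of called genes stayed within 1.5 times and 11 moved. Among values of single genes 239 kept direction and call and 43 kept direction but lost the call. No value reversed. Among the 10 smokes the count was 0 at 4 h and 1 with 4 h fitted alone, and it was 3 at 24 h, 1 without the libraries of few detected genes and 0 with 24 h fitted alone. For LPS at 24 h the count was 3, and 5 without those libraries and 1 on plate 2 alone. The mean of the heart smokes gave 3, and 7 with DESeq2. Flaming against smoldering in heart gave 0, and 1 without the hearts of high Myl7. The heart minus lung effect gave 1, and 5 with DESeq2, 2 with DESeq2's size factors, 2 without the libraries of few detected genes and 0 without the filter on low counts. The cause was not tested.

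Leaving out 1 library at a time gave 6 to 13 calls of 40 in heart, where the full fit had 12 (7 without saline heart 1 and 6 without saline heart 4), and 0 to 4 for the mean of the heart smokes. For the heart minus lung effect it gave 0 to 2, with 0 without saline animals 1, 3 or 4 or red oak flame animals 1 to 4, and 2 without red oak flame 6, peat flame 1 or 6 or red oak smolder 1 or 6. For LPS at 24 h it gave 1 to 3, for the smokes at 24 h 0 to 3, and for flaming against smoldering in lung at 4 h 0 to 1. In smoke groups of lung the size factors and dispersion trend were held when 1 was left out. For the 4 heart smokes DESeq2 called 17 of 40, no filter left 8, leaving out the hearts of high Myl7 left 9 and Myl7 as a covariate left 11. The last 2, and plates fitted alone, were chosen after seeing the data.

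Hearts and lungs are paired by animal number. With the animal as a block the count was 10 for heart against lung and 1 for the heart minus lung effect, and it changed no call. Low counts limit Tnc, Pamr1 and Thbs1 in heart and Thbs2 in lung.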
